A study of Mus musculus with 12 samples.

Results

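The data compare R1 mouse embryonic stem cells after 6 days of 2i with the same line at day 0, across every mouse gene counted. The 6 libraries used, 3 per group, are those labelled primed and those labelled 2i without an MRE11 inhibitor, out of 12 in the series. R1 is a male line of 129 background. Per the labels, it was grown on gelatin in DMEM with fetal bovine serum, non-essential amino acids, 2-mercaptoethanol and LIF, with a daily change of medium. The primed group is that culture at day 0 with no treatment, and the 2i group is the same line after treatment for 6 days. The sources used here do not give the base medium during 2i, and no group stayed untreated to day 6, so 2i, time and any other change of medium cannot be told apart. All libraries come from 1 line, and whether those of a group came from separate cultures is not labelled. P-values therefore measure only the spread among them, which may be technical.

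2i is a pair of inhibitors, of MEK in the ERK pathway and of GSK3, which is known to hold mouse embryonic stem cells in a uniform state close to that of the early epiblast. Cells in serum with LIF are known for a more mixed population that spreads on its substrate and expresses some lineage genes. The switch between these media is known to alter the cytoskeleton, metabolism and chromatin as well as the pluripotency factors, and those other gene groups are described here.

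The labelled cell type was checked first. The 12 markers of pluripotent cells summed to 4994, 5347 and 5635 CPM (counts scaled to library size, with TMM factors) in the primed libraries and 5407, 5470.3 and 5206 CPM in the 2i libraries. Sums for primitive endoderm markers (7.90 to 18.03 CPM in primed, 9.36 to 10.5 CPM in 2i), mesoderm markers (9.58 to 11.8 and 20.4 to 24.04 CPM), 2-cell-like markers (9.35 to 12.1 and 12.7 to 14.2 CPM), neuroectoderm markers (114 to 122 and 76.5 to 97.95 CPM) and trophoblast markers (142 to 169 and 112 to 169 CPM) were low beside it. Pou5f1, a defining factor of pluripotent cells, had few counts in both groups, at 9.01, 8.57 and 7.63 CPM in primed and 9.83, 5.597 and 4.68 CPM in 2i, while Sox2 stood at 562, 627 and 607 CPM in primed and 534, 575 and 522 CPM in 2i. Reads of Pou5f1 may be shared with its near-identical pseudogenes and the counting is not described, so its values may understate the level. Of the markers tested, 2 of 12 pluripotent ones were called higher and 4 lower (4 and 4 with the replicate block), 3 of 4 mesoderm ones higher, 3 of 5 neuroectoderm ones lower and 2 of 4 trophoblast ones lower. EdgeR, DESeq2 and limma voom called 0 of the 2 endoderm and 5 2-cell-like ones tested, and 0 had an unadjusted p below 0.05. Library totals ran from 5894561 to 6645873 counts. The replicate 1 library of each group stood apart: the chi-square of counts per degree of freedom was up to 13.01 in pairs with it and as low as 2.63 between replicates 2 and 3. The gene with the most counts in replicate 1 was an ID without a symbol, at 2.56% of counts in primed and 2.71% in 2i. In replicates 2 and 3 the top gene was a mitochondrial one, at 1.27% to 1.35%. How much of the chi-square came from that ID was not tested. Values without replicate 1 are given for some, not all, of the calls and sizes that they change.

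At an edgeR adjusted p below 0.05, 5346 of 13230 genes tested differed (40.4%), 2651 higher in 2i (20.0%) and 2695 lower (20.4%). A change of at least 2-fold as well was found for 2128 genes (16.1%), 949 higher (7.17%) and 1179 lower (8.91%). The median log2 fold change over all genes tested was −0.01. For 50.4% of genes tested the libraries of one group did not overlap those of the other. These shares are the background for every list, and a share called near them is no result about a list. "Rose" and "fell" mean that this test called the gene, changes are log2 fold changes of 2i over primed ± SE, levels are CPM in replicates 1, 2 and 3, and gene positions are GENCODE M21 on GRCm38.

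**Figure D1:**
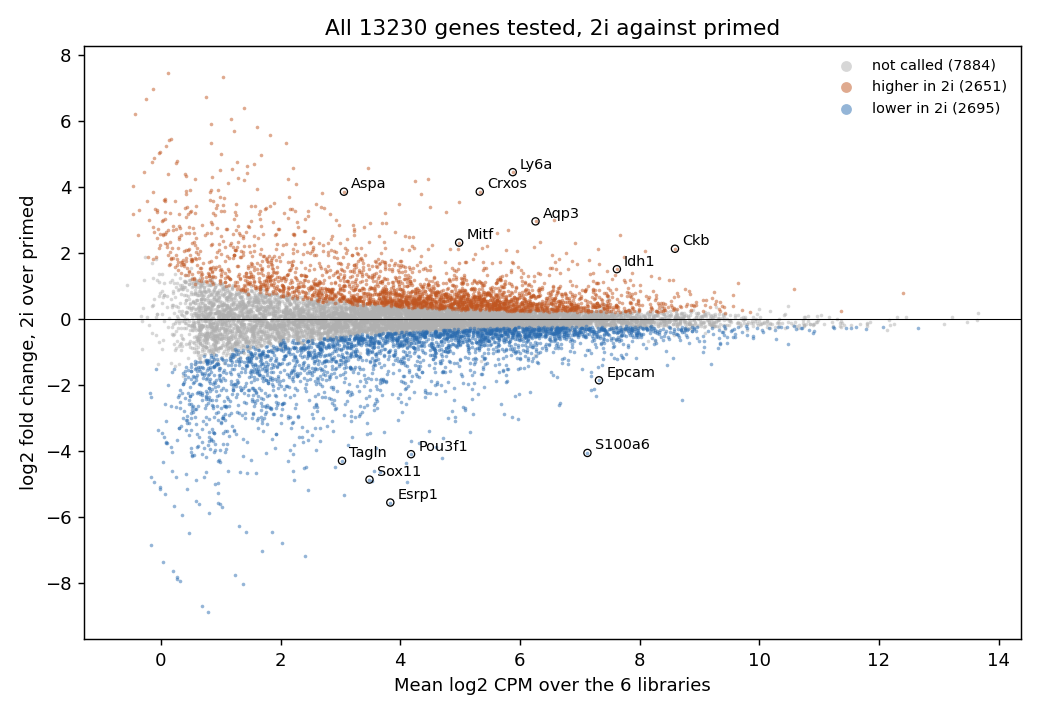
Log2 fold change of 2i over primed against the mean log2 CPM of the 6 libraries for the 13230 genes tested. Points are coloured by the edgeR call, with 2651 genes higher and 2695 lower in 2i. A selection of genes is ringed and labelled, not all of which are named in the text.

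Of 30 contractile cytoskeleton genes tested, 21 fell in 2i. Many of them are targets of SRF, a transcription factor that binds the CArG box together with MRTF cofactors, which are known to be held back by free actin monomers. The CArG box is a pair of C letters, 6 letters that are A or T, and a pair of G letters. It was found on either strand in 11 of 35 promoters (31.4%) of the 29 list genes with a RefSeq promoter, against 1.63% of all 32851 promoters of this length and 1.28% of those of genes tested. The list was drawn up as SRF targets, so this share describes its members and is no result of 2i. The 3 called members with the largest change whose match lay wholly before the start site are shown as 150 bases each from RefSeq, build GRCm38.p6, 5′ to 3′ on the gene's strand, with the CArG box in capitals. They are Myl9 (chr2:156775233-156775382, plus strand), Acta1 (chr8:123894776-123894925, minus strand) and Cnn2 (chr10:79988450-79988599, plus strand), and they fell by 3.45, 3.24 and 2.96 on the log2 scale. They show the box in its sequence, and each stretch lies wholly before the start site without always ending at it.
Myl9: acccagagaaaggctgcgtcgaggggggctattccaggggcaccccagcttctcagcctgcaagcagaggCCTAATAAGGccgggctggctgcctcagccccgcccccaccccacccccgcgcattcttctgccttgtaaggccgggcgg
Acta1: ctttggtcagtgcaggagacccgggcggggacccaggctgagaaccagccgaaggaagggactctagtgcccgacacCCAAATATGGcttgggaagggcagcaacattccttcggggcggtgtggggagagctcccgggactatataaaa
Cnn2: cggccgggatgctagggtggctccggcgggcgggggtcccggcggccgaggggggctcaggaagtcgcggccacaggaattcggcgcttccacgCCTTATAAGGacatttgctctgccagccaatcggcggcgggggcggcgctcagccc

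Of 32 contractile actin and SRF target genes, 30 were tested, 2 rose, 21 fell and 7 were not called, with a median change of −0.68. Without the replicate 1 libraries 4 rose and 21 fell, and the rising count was 1 without primed replicate 2, primed replicate 3 or 2i replicate 3 and 4 without primed replicate 1. Cnn2, a calponin that binds actin, stood at 94.02, 83.9 and 77.4 CPM in primed and 14.9, 10.6 and 7.098 CPM in 2i. No library of either group overlapped the other, and the change was −2.96 ± 0.18 (edgeR adjusted p = 3.91e-11). Tagln (transgelin, an actin cross-linker; ENSMUSG00000032085, chromosome 9, 45929619 to 45936058, minus strand) went from 61.9, 25.05 and 30.8 to 4.2996, 1.03 and 0.645 CPM, a change of −4.28 ± 0.60 (edgeR adjusted p = 0.000241). Its change was −5.51 without 2i replicate 1. Acta2, smooth muscle actin, went from 101, 25.05 and 26.2 to 8.91, 3.68 and 1.77 CPM. Primed replicate 1 was far above the other primed libraries for this gene, and its change of −3.40 ± 0.72 became −2.41 without that library and −4.20 without 2i replicate 1. The call on Acta2 was lost when only the 6 primed and 2i libraries were fitted. In the same libraries the 16 fibroblast and feeder-cell markers summed to 121, 71.4 and 74.004 CPM in primed and 35.01, 36.1 and 31.6 CPM in 2i. Lum and Fap had no counts in any of the 6, and Dcn and Postn had none in primed. Their part in the result was not tested, and in bulk libraries fewer cells of a type and less RNA per cell cannot be told apart.

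Tpm1, a tropomyosin, stood at 411, 204 and 196 CPM in primed and 101, 99.6 and 95.2 CPM in 2i, with primed replicate 1 again the highest (−1.45 ± 0.26, edgeR adjusted p = 0.001302). Tpm2 fell by 2.75 on the log2 scale, and Myl9, a myosin light chain, by 3.45. Vcl, which encodes vinculin of focal adhesions, fell less, from 52.5, 53.5 and 56.2 to 35.6, 34.03 and 36.1 CPM. Cnn3, another calponin, rose from 253, 291 and 285 to 367, 428 and 376 CPM. Srf itself was not called (−0.74 ± 0.34, edgeR adjusted p = 0.103). It stood at 12.6, 28.2 and 28.98 CPM in primed and 8.599, 19.1 and 13.7 CPM in 2i, lowest in replicate 1 of both groups, and it was called lower without primed replicate 1 (edgeR adjusted p = 0.00256), without 2i replicate 2 (0.03403) and without replicate 1 of every group (0.00184).

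YAP and TAZ are cofactors of the TEAD factors that are known to answer to cell spreading and to be held in the cytoplasm by the Hippo kinases. Of 20 target genes tested of 23, 2 rose and 11 fell (median −0.81). The rising count was 1 without primed replicate 2, primed replicate 3 or 2i replicate 1. Gadd45a, a stress-response gene, went from 65.7, 43.2 and 49.5 to 10.4, 11.3 and 10.97 CPM (−2.27 ± 0.15, edgeR adjusted p = 1.1e-10). Ccn2 and Ccn1, secreted matrix-associated proteins and the best known targets, fell by 0.96 and 0.87. Igfbp3, which binds insulin-like growth factors, fell by 2.47, and F3, tissue factor, by 1.47. Myof (myoferlin, of membrane repair) went the other way, from 30.1, 17.8 and 20.1 to 58.97, 47.7 and 48.9 CPM. Amotl2, another target, also rose, by 0.33 ± 0.10 (edgeR adjusted p = 0.0142). That call was lost without primed replicate 2, primed replicate 3 or 2i replicate 1. Several cofactor and kinase genes of the pathway rose. Wwtr1, which encodes TAZ, rose from 22.1, 19.3 and 21.2 to 52.1, 51.6 and 54.04 CPM (1.33 ± 0.11, edgeR adjusted p = 2.71e-09). Yap1 rose by 0.27, Tead1 by 0.73, Tead4 by 0.78 and the kinase gene Stk3 by 0.72. Amot, an angiomotin that binds YAP, fell by 1.14. Of the 17 Hippo components 6 rose and 2 fell (median 0.19), and 1 fell without any one of primed replicate 1, primed replicate 3 and the 3 2i libraries. The TEAD letters CATTCC, on either strand, were found in 8 of 18 promoters of the target genes (44.4%), 25.7% of those of the SRF list, 14.7% of all promoters and 12.1% of those of genes tested.

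The 6 keratin genes tested on the list of intermediate filaments and lamins all fell in 2i. Krt8 (ENSMUSG00000049382, chromosome 15, 101996698 to 102004482, minus strand) stood at 98.5, 55.3 and 44.7 CPM in primed and 7.37, 4.71 and 3.39 CPM in 2i (−3.67 ± 0.37, edgeR adjusted p = 9.01e-06). Its partner in simple epithelia, Krt18, fell by 4.21, and Krt19 by 3.06. Ina, a neuronal intermediate filament gene, fell from 73.97, 75.1 and 83.5 to 9.98, 7.51 and 11.6 CPM. Lmna (lamin A/C of the nuclear lamina) fell from 56.3, 43.4 and 45.96 to 17.5, 21.5 and 18.7 CPM, with no overlap. The neurofilament genes Nefl and Nefm rose by 1.11 and 1.64. Vim, vimentin, stood at 219, 123 and 135 CPM in primed and 187, 184 and 206 CPM in 2i and was not called (0.27 ± 0.15). Without primed replicate 1, its highest library, it was called higher at 0.57. Of 16 such genes tested 2 rose and 9 fell (median −0.97).

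Annexins and S100 proteins bind calcium and membranes, and S100a10 is the partner of Anxa2. Their summed level was 1318, 1252 and 1196 CPM in primed and 451, 401 and 408 CPM in 2i. S100a6 stood at 602, 566 and 535 CPM in primed and 37.3, 34.9 and 30.6 CPM in 2i (16.5-fold lower). Anxa2 went from 82.1, 77.2 and 61.9 to 27.03, 23.3 and 19.5 CPM, and S100a10 from 156, 155 and 165 to 84.8, 54.9 and 65.5 CPM. Anxa3 and Anxa1 fell by 2.93 and 2.25. S100a13 rose by 1.64, the only called rise among 17 tested, where 11 fell (median −0.96).

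**Figure D2:**
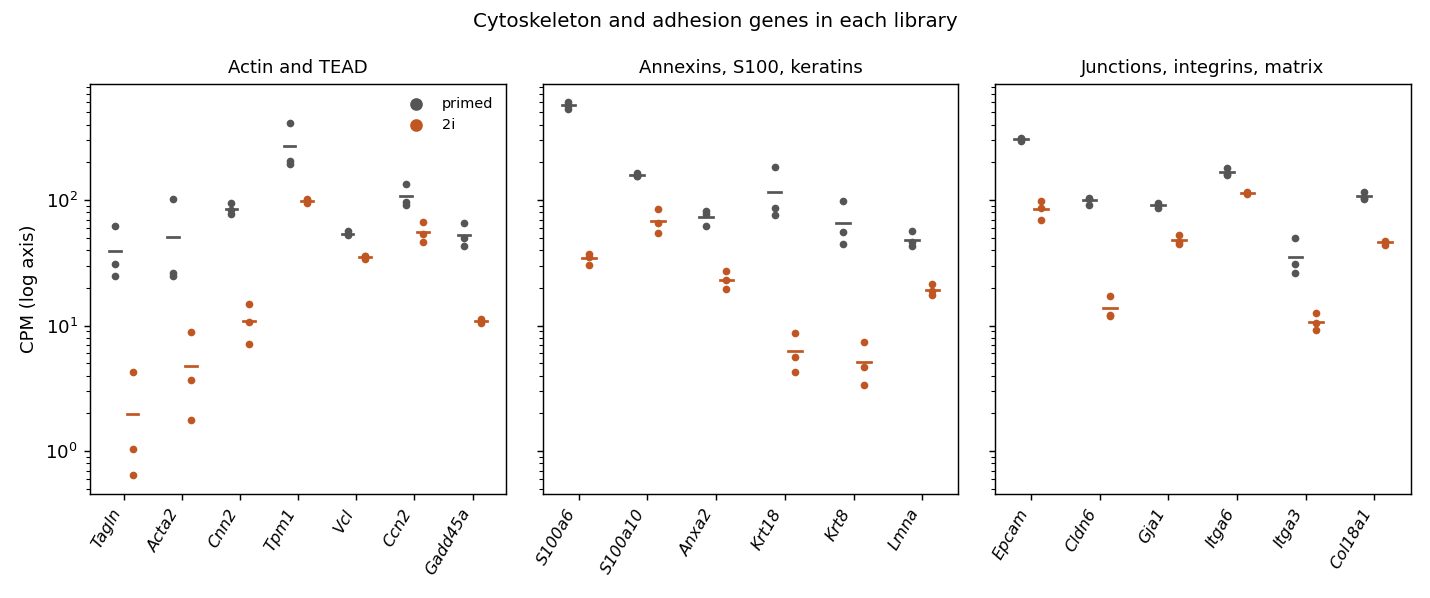
CPM on a log axis in each primed (grey) and 2i (orange) library for cytoskeleton, annexin, keratin, junction, integrin and matrix genes, with bars at the arithmetic mean of 3. The highest primed point is replicate 1 for every gene shown except Vcl, S100a10, Epcam, Cldn6, Gja1 and Col18a1. In each gene shown the 2 groups do not overlap.

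Adhesion genes changed in composition. Of 28 cadherin, tight junction, desmosome and gap junction genes tested of 37, 5 rose and 16 fell (median −0.62), and 3 rose without primed replicate 1, primed replicate 2 or 2i replicate 2. Cdh1, E-cadherin of adherens junctions, was not called, at 917, 793 and 773 CPM in primed and 751, 889 and 975 CPM in 2i (0.07 ± 0.11, edgeR adjusted p = 0.619). Epcam, an epithelial adhesion molecule (ENSMUSG00000045394, chromosome 17, 87635979 to 87651129, plus strand), fell from 295, 305 and 312 to 69.4, 85.9 and 98.2 CPM (−1.85 ± 0.11, edgeR adjusted p = 9.88e-12). Cldn6, a claudin of tight junctions, fell from 102, 104 and 92.2 to 12.1, 11.9 and 17.1 CPM. Tjp3, a scaffold of tight junctions, fell by 1.88, and the desmosomal plaque gene Pkp2 by 1.96. Gja1, of gap junctions, fell from 90.6, 86.1 and 95.5 to 46.1, 44.8 and 52.4 CPM. Dsg2, a desmosomal cadherin, rose by 1.30.

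Integrins link the matrix to actin as pairs of alpha and beta chains. Of 13 tested of 19, 2 rose and 7 fell (median −0.44). Itga3 and Itga6, laminin receptor chains, went from 49.6, 26.1 and 30.7 to 10.4, 12.7 and 9.19 CPM and from 179.7, 159.9 and 160.0 to 113, 113 and 117 CPM. Itgb1, the common beta chain, fell by 0.44, and Itgb7, a beta chain known from leukocytes, by 2.63. The vitronectin receptor chains Itgav and Itgb5 rose by 0.83 and 1.17.

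Collagens were mostly out of reach of the test. Of 45 collagen genes 15 passed the filter on low counts, which keeps genes through the group where they are high, and 1 rose and 9 fell. Col18a1, of basement membranes, stood at 104, 102 and 116 CPM in primed and 47.3, 44.2 and 46.6 CPM in 2i, and Col1a1 at 41.3, 16.8 and 18.2 and 8.75, 7.36 and 5.32 CPM. Serpinh1, a chaperone of collagen folding, went from 60.8, 24.7 and 26.8 to 13.7, 5.01 and 7.904 CPM. Primed replicate 1 was the highest of the 6 libraries for Col1a1 and Serpinh1. Col1a1, Col1a2, Col3a1, Col5a1 and Col6a1 are also among the fibroblast markers given beside the actin genes. The markers and the collagens are therefore not separate sets. In sum the markers were lower in 2i, as were most called keratin, junction and collagen genes. Of the 8 tested 5 fell, and edgeR, DESeq2 and limma voom called 0 higher, with 0 higher at an unadjusted p below 0.05 and 1 called without replicate 1 of every group. Their part in these results was not tested.

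Of 44 lysosomal genes tested, 19 rose in 2i. Lysosomes break down proteins, lipids and glycans, and many of their genes are known to carry an E-box read by TFEB, TFE3 and MITF. The letters TCACGTG, on either strand, were in 12 of 46 promoters (26.1%) of the 37 lysosomal genes with a RefSeq promoter and in 4 of 14 (28.6%) of those of the vacuolar ATPase. They were in 3 of 34 (8.82%) of those of autophagy genes, 3.77% of all promoters and 6.03% of those of genes tested. The lists were drawn up by function, so these shares describe their members and are no result of 2i. Whether genes with the letters rose more than those without was not tested. The called lysosomal genes with the largest change whose match lay wholly before the start site follow in the same form, with the matches in capitals. They are Ctsa (chr2:164833623-164833772, plus strand), Glb1 (chr9:114400928-114401077, plus strand) and Gaa (chr11:119267750-119267899, plus strand), and 2 overlapping matches on opposite strands run together in Ctsa.
Ctsa: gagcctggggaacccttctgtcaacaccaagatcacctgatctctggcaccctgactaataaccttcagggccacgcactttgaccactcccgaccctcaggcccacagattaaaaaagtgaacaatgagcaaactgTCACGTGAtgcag
Glb1: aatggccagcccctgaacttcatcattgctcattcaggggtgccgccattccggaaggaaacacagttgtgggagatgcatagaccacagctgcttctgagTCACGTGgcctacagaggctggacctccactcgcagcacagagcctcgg
Gaa: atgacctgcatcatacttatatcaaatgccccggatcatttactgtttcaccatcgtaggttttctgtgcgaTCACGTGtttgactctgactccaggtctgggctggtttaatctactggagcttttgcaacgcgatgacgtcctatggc

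These 3 genes encode cathepsin A, beta-galactosidase and acid alpha-glucosidase, and they rose by 0.86, 0.61 and 0.43, though the call on Gaa was not kept with every library left out in turn. Of 44 lysosomal enzyme and membrane genes tested of 47, 19 rose and 4 fell (median 0.28), with 7 falls without primed replicate 1. The list summed to 1922, 2119 and 2095 CPM in primed and 2779, 2932 and 2995 CPM in 2i, with no overlap. Npc2, which hands cholesterol out of the lysosome (ENSMUSG00000021242, chromosome 12, 84754562 to 84773152, minus strand), went from 115, 131 and 119.5 to 298, 277 and 280.4 CPM (1.23 ± 0.08, edgeR adjusted p = 9.53e-11). The protease genes Ctsb and Ctsc went from 47.7, 52.96 and 51.9 to 100.1, 105 and 102 CPM and from 18.03, 20.8 and 16.05 to 44.5, 53.5 and 58.4 CPM. Hexa, a subunit of beta-hexosaminidase, rose by 1.10, and Lamp1, a major membrane protein, from 376, 432 and 426 to 484, 565 and 607 CPM.

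The MiT factors themselves moved in different directions. Mitf (ENSMUSG00000035158, chromosome 6, 97807052 to 98021349, plus strand) had the largest rise among the 44 genes tested, from 11.3, 15.97 and 14.96 to 72.5, 77.5 and 60.8 CPM (4.99-fold, edgeR adjusted p = 1.39e-11). Tfe3 fell from 44.4, 37.7 and 36.1 to 32.2, 21.2 and 20.5 CPM (−0.68 ± 0.16, edgeR adjusted p = 0.00185). Trpm1, a melanocyte channel gene, went from 0.311, 0.336 and 0.935 to 21.2, 24.7 and 21.1 CPM, and Rab38, of melanosome transport, from 0.622, 2.69 and 1.71 to 21.2, 27.8 and 21.3 CPM. Both of these genes were named after their values were seen, since MITF is known for its role in pigment cells. No list of pigment-cell genes was drawn up, so they do not speak for such genes as a set. Rab27a, another Rab gene of vesicle traffic, went the other way and fell, so the genes named here share no direction. A link of any of them to Mitf was not tested. Falls on the list included Ctsz (−0.97 ± 0.14), Scarb2, which carries glucocerebrosidase to the lysosome (−0.53 ± 0.12), and Manba, beta-mannosidase (−2.35 ± 0.53). Manba stood at 20.98, 63.7 and 66.5 CPM in primed, where replicate 1 was low, and 11.2, 9.87 and 8.55 CPM in 2i.

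The vacuolar ATPase pumps protons into the lysosome. Of 16 subunit genes tested 5 rose (median 0.16). EdgeR, DESeq2 and limma voom called 0 lower, with 0 at an unadjusted p below 0.05, and 1 was called lower without 2i replicate 2 or with the replicate block. The sums were 1593, 1648 and 1582 CPM in primed and 1752, 1932 and 1891 CPM in 2i. Atp6ap2, an accessory subunit, went from 91.8, 95.3 and 88.5 to 144, 156 and 146 CPM, and Atp6v1b2 rose by 0.48. Of 35 autophagy genes 7 rose and 3 fell (median 0.16), which with the replicate number as a block became 11 and 5. Gabarapl2, of the family that coats autophagosomes, went from 133, 88.3 and 99.7 to 284, 321 and 275 CPM (1.45 ± 0.12, edgeR adjusted p = 1.81e-09), and the initiating kinase gene Ulk1 from 229.8, 271 and 245 to 479.7, 591 and 638 CPM (1.20 ± 0.11, edgeR adjusted p = 1.24e-08). Map1lc3b rose by 0.44. The mitophagy receptor gene Bnip3 fell from 48.2, 70.4 and 61.1 to 20.4, 24.7 and 24.7 CPM. The cargo receptor gene Sqstm1 was not called (−0.07 ± 0.10).

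Some genes of both fatty acid synthesis and fatty acid oxidation rose. Of 25 synthesis, elongation and desaturation genes 13 rose and 4 fell (median 0.41), and the list summed to 1603, 1633 and 1600.2 CPM in primed and 1986, 2221 and 2208 CPM in 2i. Scd2, a desaturase that makes monounsaturated fatty acids (ENSMUSG00000025203, chromosome 19, 44293674 to 44306864, plus strand), went from 152, 133 and 139.9 to 303, 329 and 335 CPM (1.19 ± 0.10, edgeR adjusted p = 1.79e-09). Me1, malic enzyme, which supplies NADPH, went from 31.9, 37.5 and 36.9 to 76.3, 108 and 99.2 CPM. Fasn, fatty acid synthase, rose by 0.36, Scd1 by 0.54, Lpin1 by 1.10 and Acsl3 by 0.67. Acyl-CoA synthetase genes were split, as Acsl5 fell from 24.4, 20.01 and 21.8 to 1.84, 3.68 and 3.23 CPM (−2.91 ± 0.23, edgeR adjusted p = 1.53e-09) and Acsl4 fell by 0.67.

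Among genes of oxidation 8 of 24 genes rose and 3 fell (median 0.23). Cpt1a, the carnitine acyltransferase that limits entry, went from 17.6, 20.2 and 20.6 to 51.3, 47.6 and 42.6 CPM, and Slc25a20, the carnitine carrier, from 59.4, 55.3 and 57.8 to 164, 166 and 161 CPM (1.51 ± 0.10, edgeR adjusted p = 3.25e-11). The beta-oxidation enzyme genes Acaa2 and Acadm rose by 1.02 and 0.69, while Decr1 and Acadl fell by 0.98 and 0.54. Acox3, of peroxisomal oxidation, rose by 1.48.

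Lipoprotein genes showed no common direction, with 7 of 17 higher and 6 lower (median 0.20). Lpl, the lipase that frees fatty acids from circulating lipoproteins (ENSMUSG00000015568, chromosome 8, 68880491 to 68907448, plus strand), went from 17.9, 22.02 and 20.1 to 91.1, 146 and 130.01 CPM (6.11-fold, edgeR adjusted p = 3.75e-10). Abca1, a cholesterol exporter, rose by 1.322. Apoe fell from 330.4, 418 and 355 to 192, 146 and 156 CPM, and Clu (clusterin) by 1.88.

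Central carbon genes outside glycolysis moved one at a time. Of 30 TCA cycle, pyruvate entry and glutamine genes 5 rose and 4 fell (median 0.00), with 7 falls under the replicate block. Idh1, cytosolic isocitrate dehydrogenase, which makes 2-oxoglutarate and NADPH (ENSMUSG00000025950, chromosome 1, 65158616 to 65186500, minus strand), went from 114, 120.2 and 115 to 296, 364 and 339 CPM (2.86-fold, edgeR adjusted p = 2.36e-11). Its mitochondrial counterpart Idh2 rose by 0.86. Glul, glutamine synthetase, fell from 254, 240.4 and 267 to 101, 111 and 122 CPM (−1.19 ± 0.09, edgeR adjusted p = 9.32e-10). Ogdh, which uses 2-oxoglutarate, was not called (−0.10 ± 0.10). Of 11 pentose phosphate genes 2 rose and 2 fell, with 0 rises without primed replicate 1, primed replicate 2, 2i replicate 2 or 2i replicate 3 and 1 fall or rise without primed replicate 3.

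Serine and one-carbon genes were called in both directions. Of 28 tested 7 rose and 10 fell (median −0.04). Phgdh and Psat1, the first steps of serine synthesis, went from 39.9, 54.1 and 57.8 to 17.8, 24.9 and 25.8 CPM and from 283, 326 and 296 to 157, 198 and 146 CPM. The mitochondrial folate genes Shmt2 and Mthfd2 fell by 0.71 and 0.92. In the glycine cleavage system Gldc fell by 0.67 while Amt rose by 0.48. Tdh, threonine dehydrogenase, on which mouse embryonic stem cells are known to depend, rose from 461, 609 and 552 to 759, 772 and 817 CPM (0.53 ± 0.09, edgeR adjusted p = 7.31e-05). Cbs, of transsulfuration, rose by 1.21. The largest rise on the list was that of Bhmt, betaine-homocysteine methyltransferase, named after its values were seen, which stood at 0.311, 0.168 and 0.312 CPM in primed and 14.6, 18.7 and 14.8 CPM in 2i.

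**Figure D3:**
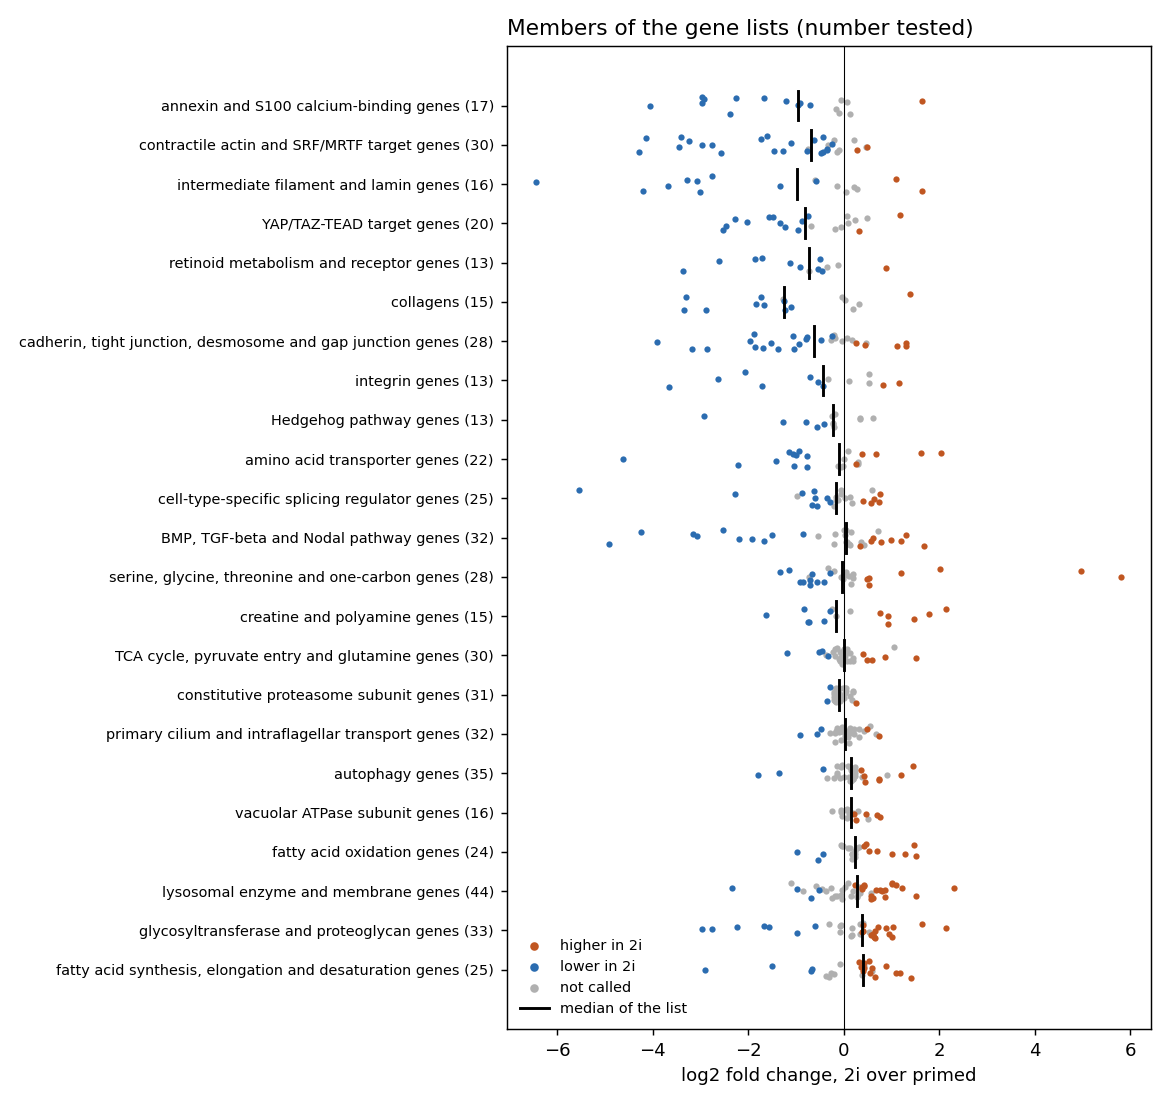
Log2 fold change of 2i over primed for each tested member of 23 gene lists, coloured by the edgeR call, with the median of each list as a black bar. Medians run from −1.24 for collagens to 0.41 for fatty acid synthesis, and most lists hold calls in both directions.

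Creatine and polyamine genes were called in 12 of 15 cases, 6 higher and 6 lower (median −0.15). The polyamine synthesis genes Odc1, Srm and Sms fell by 0.84, 0.73 and 0.74, while Sat1 and Smox, which break polyamines down, rose by 0.93 and 1.47. Srm, spermidine synthase, stood at 255, 296 and 268 CPM in primed and 168, 173 and 151 CPM in 2i. Ckb, brain-type creatine kinase (ENSMUSG00000001270, chromosome 12, 111669361 to 111672338, minus strand), rose from 202, 167 and 185 to 898, 854 and 682 CPM (4.39-fold, edgeR adjusted p = 1.92e-11), and the mitochondrial creatine kinase gene Ckmt1 by 0.94. Gatm, the first enzyme of creatine synthesis, fell from 2.18, 3.03 and 2.03 to 0.461, 1.18 and 0.645 CPM.

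Of 22 amino acid transporters tested 10 fell and 5 rose (median −0.09). Slc7a7, a cationic and neutral amino acid exchanger (ENSMUSG00000000958, chromosome 14, 54369442 to 54417780, minus strand), went from 59.7, 62.9 and 65.6 to 4.45, 1.47 and 1.61 CPM (−4.63 ± 0.23, edgeR adjusted p = 1.59e-12), and its change was −5.33 without 2i replicate 1. Slc7a3, a cationic amino acid carrier, fell from 248, 278 and 269 to 144, 128 and 111 CPM. The large neutral amino acid carrier Slc7a5 fell by 0.77, the glutamate carrier Slc1a3 by 2.21 and the neutral carrier Slc1a4 by 1.13. Another glutamate carrier, Slc1a1, rose from 4.04, 8.57 and 7.01 to 16.6, 24.5 and 18.9 CPM. The glutamine carrier Slc1a5 was not called, with a change of −0.003 ± 0.12. Over all 342 solute carriers, 188 were tested, 57 rose and 51 fell (median 0.02). The lactate exporter Slc16a3 fell from 146, 131 and 137 to 28.1, 28.7 and 29.04 CPM, and the zinc carrier Slc39a11 rose from 31.2, 37.3 and 30.4 to 94.7, 122 and 102 CPM.

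Among 26 metallothionein, iron and zinc genes 8 rose and 8 fell (median 0.09), and 5 rose without primed replicate 1 or 2i replicate 3. Tfrc, the transferrin receptor, rose by 0.44, and the iron carrier Slc11a2 by 0.68. The zinc carriers Slc39a1, Slc39a6 and Slc30a1 rose by 0.70, 0.70 and 0.53, and the metalloreductase gene Steap1 fell by 1.27. Mt1 and Mt2, metallothioneins, were not called (0.19 ± 0.15 and 0.40 ± 0.19).

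**Figure D4:**
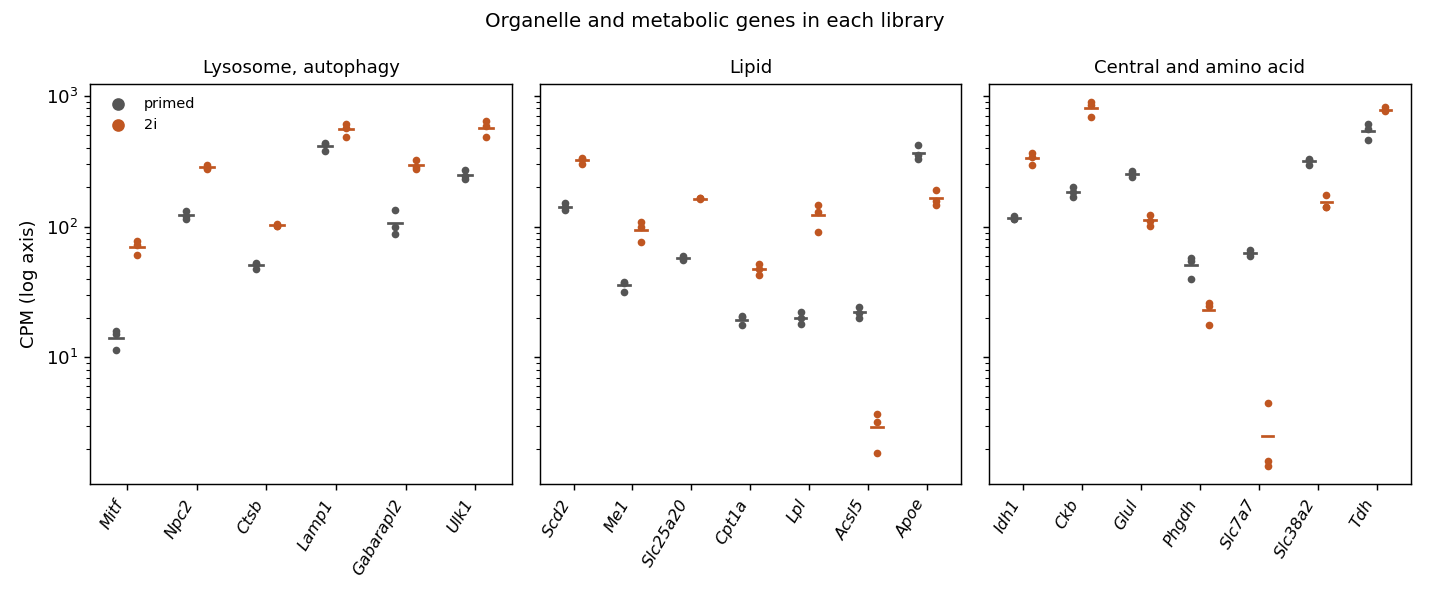
CPM on a log axis in each primed (grey) and 2i (orange) library for lysosomal, autophagy, lipid and amino acid genes, with bars at the arithmetic mean of 3. Mitf, Lpl, Idh1 and Ckb are higher in each 2i library than in any primed one, and Acsl5, Apoe, Glul, Phgdh, Slc7a7 and Slc38a2 are lower.

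Most retinoic acid pathway genes tested fell. Retinoic acid, made from vitamin A, binds RAR receptors and is known to drive differentiation of embryonic stem cells. Of 22 genes of the pathway 13 were tested, 1 rose and 9 fell (median −0.73). Rarg (ENSMUSG00000001288, chromosome 15, 102234938 to 102257517, minus strand) went from 123, 76.7 and 79.5 to 31.02, 24.01 and 21.6 CPM (−1.86 ± 0.28, edgeR adjusted p = 0.000289). Rara fell from 33.9, 33.6 and 36.8 to 14.7, 14.4 and 19.03 CPM, with no overlap. The retinoic acid binding protein genes Crabp1 and Crabp2 fell by 1.71 and 3.37. The partner receptor gene Rxra rose from 7.15, 6.72 and 5.92 to 13.7, 10.6 and 12.6 CPM. Rarb and the 3 Aldh1a synthesis genes did not pass the filter on low counts.

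In the Hedgehog pathway 5 of 13 genes tested fell (median −0.23). EdgeR, DESeq2 and limma voom called 0 higher, with 1 at an unadjusted p below 0.05. With the replicate block, without 2i replicate 1 or without replicate 1 of every group, 1 was called higher. The receptor gene Ptch1, which is also a target, fell by 0.40. The target Gli1, which lies under the level set for named genes and was added after its values were seen, went from 14.9, 10.4 and 12.3 to 1.69, 2.06 and 1.13 CPM. Gli2 was not called (0.34 ± 0.14, edgeR adjusted p = 0.0537, with 0.0438 under the replicate block and 0.0421 without replicate 1 of every group). It was called higher at 0.40 without 2i replicate 1. In the Notch pathway 6 rose and 6 fell of 23 (median −0.01). The receptor gene Notch1 rose by 0.81, the protease gene Adam10 by 1.39 and the target Hes1 from 47.7, 49.1 and 54.8 to 148, 126 and 115 CPM (1.36 ± 0.11, edgeR adjusted p = 8.26e-10). The DNA-binding factor Rbpj fell from 166, 154 and 186 to 91.5, 81.5 and 81.8 CPM. Among ligands Jag2 fell by 0.93 and Jag1 rose by 0.63. The ligand gene Dll1, added after its values were seen, had 8, 16 and 13 counts in the primed libraries and no counts in 2i. With a floor of 3 counts it was at least 12.8-fold lower in 2i.

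BMP and TGF-beta genes were called in 18 of 32 cases, 8 higher and 10 lower (median 0.05). The ligand Bmp4 went from 294, 216 and 224 to 49.8, 34.8 and 42.9 CPM (−2.53 ± 0.21, edgeR adjusted p = 7.87e-07). The targets Id1 and Id3 fell by 4.92 and 3.07, and Id4 rose from 4.82, 5.21 and 6.86 to 22.3, 18.4 and 14.03 CPM. On the Nodal side the directions were split. Nodal rose from 33.7, 31.3 and 35.4 to 60.96, 56.6 and 56.3 CPM and the effector Smad3 from 8.39, 14.8 and 11.4 to 27.8, 24.7 and 26.9 CPM. The co-receptor Tdgf1 fell from 747, 877 and 948 to 464, 491 and 463 CPM and the inhibitor Lefty1 from 44.8, 38.2 and 41.1 to 14.9, 5.45 and 6.77 CPM, whereas Lefty2, a near copy of it with which reads may be shared, was not called (0.37 ± 0.25).

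Of 24 insulin and IGF genes 6 rose and 7 fell (median 0.13). The receptor gene Igf1r fell by 0.93, its adaptor Irs2 by 1.22 and the mTORC1 inhibitor gene Ddit4 from 157, 159 and 137 to 88.3, 91.9 and 87.6 CPM. Akt2 and Foxo3 each rose by 0.81. Of 31 Eph, ephrin, semaphorin, plexin, Slit and netrin genes 10 rose and 11 fell (median 0.13), and 6 rose without 2i replicate 3. The receptor gene Nrp2 fell from 71.2, 91.96 and 86.6 to 13.7, 9.43 and 16.9 CPM and Sema6a by 3.45. Epha4 rose from 66.05, 62.7 and 69.02 to 213, 180.3 and 177 CPM (1.53 ± 0.09, edgeR adjusted p = 1.55e-11) and Ntn1 by 1.35.

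Hox genes, which set position along the body axis and are known to be held silent by Polycomb in stem cells, gained counts. All 39 annotated Hox genes were looked at, of which 9 passed the filter on low counts through the groups where they were high. Over the 3 libraries they summed to 115 counts in primed and 1087 in 2i. In CPM the sums were 8.703, 4.04 and 5.45 in primed and 50.7, 59.95 and 56.5 in 2i. The sums did not overlap, and the level in 2i was still low for 39 genes together. By gene, 28 had more counts in 2i, 4 had more in primed, 1 was equal and 6 had none in any of the 6 libraries. The Hoxc cluster went from 35 to 534 counts, Hoxb from 25 to 286, Hoxa from 38 to 144 and Hoxd from 17 to 123. Hoxc13, named after its values were seen, held 276 of the counts in 2i against 20 in primed. Genes in these clusters overlap one another and antisense RNAs, and the sources used here do not say how the counting treated strand, so which Hox transcript a count belongs to is uncertain.

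**Figure D5:**
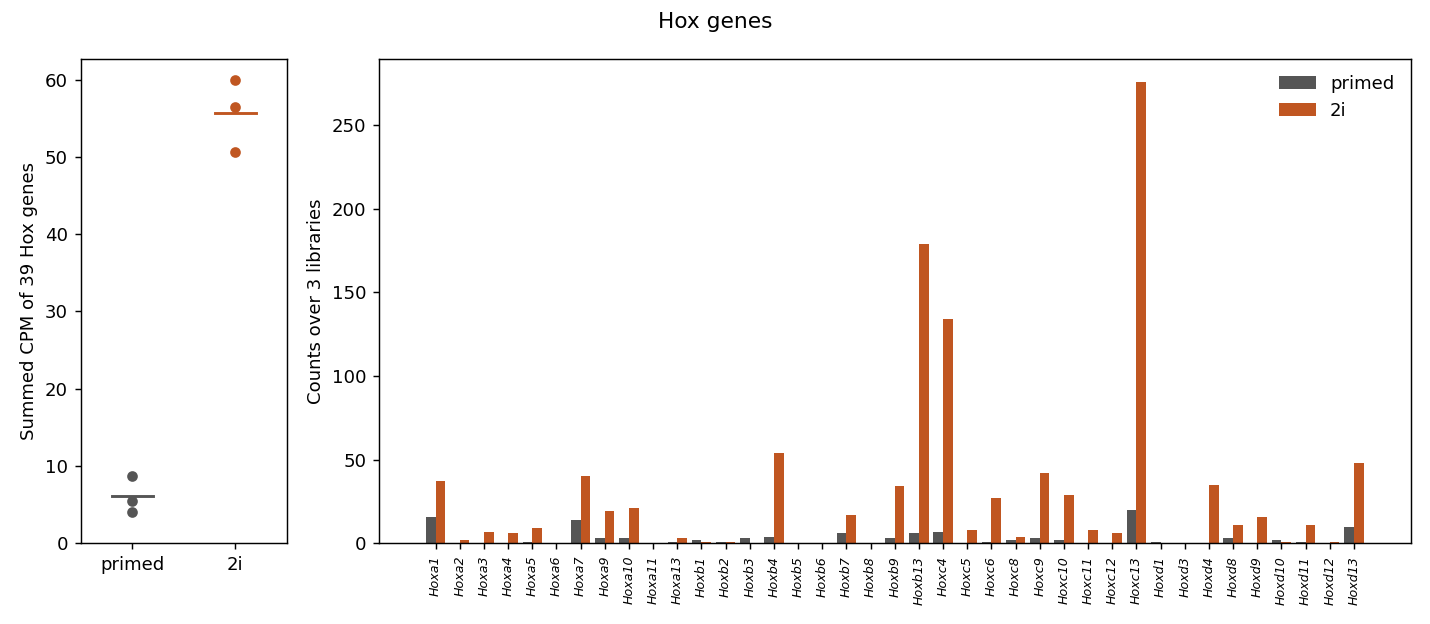
Left, summed CPM of 39 Hox genes in each primed and 2i library, with the mean of 3 as a bar. Right, counts per Hox gene over the 3 libraries of each group, where most counts in 2i fall on Hoxc13, Hoxb13 and Hoxc4.

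Other transcription factor families held calls in both directions. Of 9 Sox factors 1 rose and 4 fell, with 3 rises without replicate 1 of every group. Sox11, of neural and other progenitors, went from 76.6, 47.2 and 46.7 to 2.15, 1.91 and 1.77 CPM (28.9-fold lower, edgeR adjusted p = 1.89e-12), and its relative Sox4 from 95.3, 68.1 and 64.03 to 11.2, 10.5 and 11.5 CPM. Among 19 forkhead factors 3 rose and 9 fell (median −0.43). Foxp1 (ENSMUSG00000030067, chromosome 6, 98925338 to 99522721, minus strand) fell from 128, 76.2 and 73.7 to 6.603, 5.01 and 7.42 CPM (−3.87 ± 0.24, edgeR adjusted p = 4.82e-09), and Foxo4 by 1.27. Nuclear receptors were split, with 7 of 23 higher and 9 lower. Nr5a2, which is known to act on pluripotency genes, rose from 97.8, 96.3 and 105 to 224, 215 and 233 CPM, and Nr2f6 fell by 1.42. Among Klf factors 3 of 15 rose, Klf8 by 1.02, and 3 fell, Klf6 by 0.86 and Klf7 by 0.87. Of 345 zinc finger genes 49 rose and 45 fell. Zfp936 and Zfp977 rose by 1.92 and 1.95, and Zfp532 fell by 1.58, though members of this family share sequence and their counts may be split.

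Genes of glycan synthesis and of anchored surface proteins were called in both directions. Of 33 glycosyltransferase and proteoglycan genes 15 rose and 7 fell (median 0.38). Mgat5, which branches N-glycans, went from 7.46, 5.38 and 5.297 to 19.7, 18.3 and 19.2 CPM and B4galt6, of lactosylceramide synthesis, from 77.2, 78.3 and 88.96 to 158, 166 and 179 CPM. Fut10, a fucosyltransferase, rose by 2.14. For heparan sulfate, which binds growth factors, the sulfotransferase gene Ndst1 rose by 1.01 while the chain polymerase gene Ext1, the sulfatase gene Sulf1 and the core protein gene Gpc3 fell by 0.98, 2.96 and 1.56. Of 19 Ly6 and GPI-anchored genes 8 rose and 6 fell (median 0.48). Alpl, the alkaline phosphatase long used to stain pluripotent colonies (ENSMUSG00000028766, chromosome 4, 137741733 to 137796384, minus strand), rose from 48.5, 44.4 and 47.99 to 174, 179 and 188 CPM (1.94 ± 0.09, edgeR adjusted p = 3.82e-13). Cd55, which limits complement, rose by 1.73 and Ly6e by 0.83.

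The largest fall by the naming rule was in a splicing regulator. Esrp1, which sets epithelial splice forms (ENSMUSG00000040728, chromosome 4, 11331933 to 11386783, minus strand), went from 74.1, 97.8 and 105 to 1.54, 1.62 and 2.74 CPM (46.8-fold lower, edgeR adjusted p = 9.64e-15). Its paralog Esrp2 fell from 14.1, 12.9 and 12.3 to 8.45, 8.25 and 8.23 CPM, and Celf4, of neuronal splicing, from 84.9, 94.6 and 79.6 to 17.7, 17.2 and 18.6 CPM. Qk and Ptbp3 rose by 0.75 and 0.64. Of 25 such regulators 5 rose and 9 fell (median −0.16). Counts from 3′ ends do not show splice forms. The genes on the m6A RNA methylation list stayed mostly uncalled, with 1 of 18 higher and 3 lower. There were 0 higher without primed replicate 2, primed replicate 3, 2i replicate 1 or 2i replicate 3. Mettl16 fell from 166, 162 and 168 to 94.3, 98.2 and 107 CPM, and Mettl3 was not called (−0.14 ± 0.11). Among microRNA processing genes 5 of 20 rose, Ago2 from 96.04, 91.6 and 103 to 178, 175 and 184 CPM, and 3 fell, Dicer1 by 0.51.

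Chromatin genes were called in both directions. Of 26 BAF and PBAF subunit genes 5 rose and 5 fell. Phf10, of PBAF, fell from 99.5, 101 and 92.7 to 48.98, 60.98 and 54.04 CPM, Brd9 rose from 32.8, 31.4 and 24.5 to 47.6, 44.04 and 51.3 CPM, and Smarca4, the ATPase, was not called (−0.02 ± 0.10). Of 21 genes of the lysine demethylase families 6 rose, Kdm2b by 0.73 and Phf2 by 1.14, and 3 fell, with 3 rises without primed replicate 3. The falls included Jarid2, a family member not known as an active demethylase, by 0.58. Of 36 histone methyltransferase genes 9 rose and 8 fell. Ehmt1 and Ehmt2, which encode the G9a complex of H3K9 methylation, fell by 0.40 and 0.68, and Setdb1, another H3K9 enzyme, rose from 52.1, 45.1 and 55.5 to 82.6, 83.4 and 75.98 CPM. Of 17 deacetylase and sirtuin genes 2 fell. EdgeR, DESeq2 and limma voom called 0 of them higher, with 1 at an unadjusted p below 0.05. The replicate block called 2 higher, and 1 was called without primed replicate 3 or 2i replicate 2. Among 32 histone variant, linker histone and chaperone genes 5 rose and 9 fell. H2afy, which encodes macroH2A1 of silent chromatin, went from 158, 154 and 171 to 290.1, 324 and 309 CPM (0.94 ± 0.08, edgeR adjusted p = 7.62e-09), and H2afy2 rose by 1.00. Hmga2 rose by 1.05 while Hmga1 fell by 0.92. Of 21 retroelement silencing genes 3 rose, Zc3hav1 from 30.5, 32.8 and 31.6 to 103, 109 and 106 CPM, and 4 fell, with 2 falls without primed replicate 3, 2i replicate 2 or 2i replicate 3. Cbx1, which encodes HP1 beta, fell from 1887, 1896 and 1795 to 1073, 1077 and 1173 CPM. Replication-dependent histone genes lack a poly(A) tail as a rule, so a library primed with oligo-dT reads few of them. Of 67 such genes 42 were tested and 20 fell, with 13 falls without primed replicate 3 and 10 without 2i replicate 2. EdgeR, DESeq2 and limma voom called 0 higher, with 0 at an unadjusted p below 0.05. They summed to 278, 239 and 217 CPM in primed and 179, 137 and 137 CPM in 2i.

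Among the called genes of translation more fell than rose, but cytosolic ribosomal protein genes were called in 18.3% of cases, below the 40.4% of all genes. Mean summed CPM went from 131893 in primed to 119385 in 2i for these and from 7448 to 6658 for mitochondrial ribosomal protein genes. For initiation factors it went the other way, from 21233 to 22406. Of 82 cytosolic ribosomal protein genes 3 rose and 12 fell (median −0.14). The falling count became 31 with the replicate block. It was 5 when primed replicate 2 was left out, 7 and 4 when 2i replicate 1 or 3 was, and 5 when replicate 1 of every group was, so it is not settled by these libraries. Rpl39l and Rpl10l, paralogs known from testis, rose from 48.5, 55.3 and 59.7 to 238, 302 and 267 CPM and from 95.3, 89.4 and 82.9 to 254, 326 and 279 CPM, though reads may be shared with Rpl39 and Rpl10. Of 77 mitochondrial ribosomal protein genes 5 rose and 26 fell (median −0.17), with 17 falls without primed replicate 1 or 2i replicate 3, and 3 rises without any one primed library or 2i replicate 2. Mrpl12 fell from 261, 246 and 239 to 168, 171 and 156 CPM. Of 53 initiation factor genes 5 rose and 21 fell. Eif5a fell from 1555, 1498 and 1526 to 1033, 1022 and 964 CPM and Eif2s2, a subunit of the factor that brings the initiator tRNA, rose from 4668, 3948 and 3755 to 7338, 7367 and 6690.4 CPM. Proteasome genes were called in 3 of 31 cases (1 higher, 2 lower) and in 11 with the replicate block (4 and 7). There were 0 rises without primed replicate 2, primed replicate 3 or 2i replicate 1, and 1 fall without primed replicate 3 or 2i replicate 3. Psma7 fell by 0.35. Of 25 heat shock genes 7 rose, Hspb8 from 57.3, 56.5 and 46.3 to 169.5, 209 and 187 CPM, and 3 fell, Hspa4l by 1.49.

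Apoptosis regulators were called in 8 of 29 cases (3 higher, 5 lower), with 5 higher under the replicate block. Bcl2l11, which encodes the killer protein BIM, fell from 70.4, 59.01 and 52.7 to 15.05, 12.96 and 15.5 CPM (−2.07 ± 0.15, edgeR adjusted p = 2.25e-10), as did the survival gene Mcl1 (−0.59 ± 0.10). Apaf1, of the apoptosome, rose by 0.78. Of 18 clock genes 4 rose and 5 fell, and the activator genes Arntl and Clock rose by 0.96 and 0.60. Cilium genes had 2 higher and 3 lower of 32, 6 and 3 with the replicate block, and 1 higher without 2i replicate 3. Of 24 tubulin and microtubule genes 4 rose and 11 fell (median −0.22). Stmn2, of microtubule turnover in neurons, fell from 613, 569 and 521 to 265, 252 and 237 CPM and Map1b from 336, 282 and 274 to 135, 119 and 135 CPM, while Tubb2b rose from 1054, 1104 and 1208 to 1848, 2119.9 and 2343 CPM.

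Some genes had counts in 1 group alone. With at least 30 counts over the other group, 18 genes had no counts in 2i and 5 had none in primed. A count of 0 over 3 libraries allows up to 3 counts, and folds below are bounds from that floor, which covers counting error only. Psmb8, an immunoproteasome subunit, had 62, 63 and 47 counts in the primed libraries, so it was at least 59.5-fold lower in 2i. Tmem54 had 63, 46 and 42 counts and was at least 52.2-fold lower, and Enpp2, which makes lysophosphatidic acid, had 40, 25 and 24 counts and was at least 30.8-fold lower. In the other direction Cnga4, a subunit of an olfactory ion channel, had 19, 26 and 22 counts in the 2i libraries and was at least 21.5-fold higher there. These are the 3 genes with the most counts among those with none in 2i and the 1 with the most among those with none in primed, named after their values were seen. Without any one primed library these numbers were 7 to 9 and 11 to 15, and without any one 2i library 25 to 29 and 1 to 3.

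Median log2 fold changes per nuclear chromosome ran from −0.09 on chromosome 15 to 0.08 on chromosome 16, and the share of genes called from 35.4% on chromosome 19 to 46.0% on chromosome X. By annotated type, 42.1% of 11900 protein-coding genes, 40.0% of 235 lincRNA genes, 34.8% of 138 antisense genes and 9.42% of 329 processed pseudogenes were called.

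The symbol classes not described above were as follows, with the number tested, the calls and the median given for each. Transport and channel classes were potassium channels (2 of 19 higher and 6 lower, median −0.03), calcium, sodium and TRP channels (4 of 20 higher and 4 lower, median −0.04) and ABC transporters (7 of 24 higher and 5 lower, median −0.001, with 3 lower without primed replicate 3 or 2i replicate 3). Receptor classes were orphan and adhesion G protein-coupled receptors (8 of 29 higher and 5 lower, median 0.01), TNF receptors (5 of 10 higher and 1 lower, median 0.54) and protocadherins, of which 2 of 68 were tested, 1 higher and 1 lower. For TNF receptors the rises were 2 or 3 without primed replicate 1, primed replicate 3, 2i replicate 2 or 2i replicate 3, and the fall was lost without primed replicate 1, primed replicate 2 or 2i replicate 1. Serpins, a class of mostly protease inhibitors, had 6 of 13 higher and 4 lower (median 0.31). Of 100 cytochrome P450s, an enzyme class, 14 passed the filter on low counts, which keeps genes through the group where they are high. Of these 14, 6 were higher and 0 lower (median 0.50). For these edgeR, DESeq2 and limma voom called 0 lower, with 0 lower at an unadjusted p below 0.05. Further enzyme classes were aldehyde dehydrogenases (2 of 14 higher and 6 lower, median −0.56) and glutathione S-transferases (5 of 16 higher and 3 lower, median 0.08). Signalling classes were Rab GTPases (13 of 56 higher and 8 lower, median 0.04), dual-specificity phosphatases (3 of 19 higher and 9 lower, median −0.38) and tyrosine phosphatases (2 of 21 higher and 8 lower, median −0.25, with 1 higher without primed replicate 3, 2i replicate 2 or 2i replicate 3). The remaining ones were TRIM proteins (11 of 33 higher and 7 lower, median 0.16, with 7 higher without 2i replicate 3), nucleoporins (2 of 20 higher and 6 lower, median −0.13, with 3 lower without primed replicate 3 and 1 higher without 2i replicate 2 or 2i replicate 3), TMEM proteins (40 of 158 higher and 32 lower, median 0.05) and FAM genes (35 of 120 higher and 23 lower, median 0.05). In these classes Gsta4, of detoxification of lipid peroxides, rose from 161, 187 and 151 to 368, 351 and 299.6 CPM, the drug exporter gene Abcb1a from 22.2, 16.8 and 16.7 to 54.97, 47.3 and 39.2 CPM and Rab11fip5, of endosome recycling, from 5.28, 7.73 and 4.83 to 38.4, 38.6 and 33.7 CPM. Rab27a, of vesicle secretion, fell from 28.9, 29.6 and 34.7 to 6.45, 6.92 and 5.81 CPM and the adhesion receptor gene Adgrl1 from 172, 166 and 178 to 62.5, 72.5 and 82.1 CPM.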

How the data were processed

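Total RNA was turned into libraries with the QuantSeq 3′ mRNA kit, which primes with oligo-dT, per the labels' protocols. The authors deposited raw counts per gene, with 1 table per library. The submitters' processing notes list FastQC, STAR, DESeq2 1.32.0 and GRCm38. The sources used here do not give the counting tool, annotation release, strand setting or whether molecular identifiers were counted, so overlapping and near-identical genes are uncertain. Of 56691 mouse gene IDs 52073 had a symbol in GENCODE M21 (98.4% of counts), and 114 spike-in features with 2 counts were left out.

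Groups and replicate numbers came from the labels. All 12 libraries entered edgeR 4.0.16 in R 4.3.3 (quasi-likelihood F test, TMM, filterByExpr, robust), and 2i was set against primed with Benjamini-Hochberg adjustment over 13230 genes and a threshold of 0.05. The SE is the log2 fold change divided by the square root of F. On simulated data the test recovered 90% of 100 genes changed 2-fold and 99% of 100 changed 4-fold, with 8 unchanged genes called. The changed genes all had a mean count above a minimum, and no difference between replicate numbers was simulated. These figures therefore do not describe low-count genes or libraries that stand apart as replicate 1 did. Same-numbered primed and 2i libraries deviated together from their group means (r = 0.40, 0.33 and 0.18), a hint from the data that the numbers pair them, and the block is an alternative.

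The 42 gene lists, 7 marker lists and 30 symbol classes were chosen with earlier results of these data known. Named genes are up to 12 largest rises and falls, anchor genes, and up to 4 called members per list and direction (2 per class) that had a log2 CPM averaging 3 or more, no overlap between groups and a call kept with any library left out. No set test was run, and some genes and 1 symbol class are not reported here. The 3 promoter motifs were chosen after the list results were seen. Alternatives were RLE and upper-quartile factors, DESeq2 1.42.0, limma 3.58.1 voom, other filters and fits, and leaving out libraries. Leaving out replicate 1 of every group, and each library in turn for genes with counts in 1 group, was added after seeing the data.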

Additional observations from a re-analysis of the deposited data

How the results depend on the processing

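Counts of genes called ran from 4514 to 4892 with 1 library left out, against 5346, and were 5341 with RLE factors, 5337 with upper-quartile factors, 4928 with DESeq2, 5318 with limma voom, 5168 with 6 libraries in the fit, 5748 with no low-count filter, 4494 with a stricter filter (5 CPM in 3 libraries), 6294 with the replicate block and 4998 without replicate 1 of every group. Of the 5346 calls, 82.8% to 99.9% were also called in the same direction under each of these. The replicate block changed the call of 5 of 404 named genes and moved the list counts given beside it in the text. Genes changed at least 2-fold numbered 1343 under the stricter filter, which tested 10587 genes, with 706 lower, against 2128 and 1179. The highest chromosome median was 0.0971 with no filter, 0.0686 with the stricter filter, 0.0688 without replicate 1 of every group and 0.0681 to 0.0785 with 1 library left out. The lowest was −0.0746 with no filter and −0.1149 to −0.0798 with 1 library left out. With at least 10 counts in place of 30, 109 genes had none in 2i and 44 had none in primed. Leaving out 1 library gave 7 to 29 and 1 to 15, where fewer libraries make both conditions easier or harder to meet.

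Of 2370 list counts recomputed, 136 moved by over 1.5 times, 100 of them by 1 or 2 genes. Beside those in the text and 1 in a class not reported here, the moves by 3 or more were as follows. Under the stricter filter, which tests fewer genes, falls went from 11 to 7 for YAP targets, 20 to 8 for replication-dependent histones, 9 to 5 for collagens, 5 to 2 for G protein-coupled receptors and 4 to 0 for calcium, sodium and TRP channels, and rises from 6 to 3 for cytochrome P450s and 8 to 3 for Hox genes. With no filter falls went from 9 to 15 for collagens, 6 to 10 for potassium channels and 4 to 11 for calcium, sodium and TRP channels, and rises from 8 to 17 for Hox genes. With 6 libraries in the fit Hox rises went from 8 to 5. Of 6058 values of named genes recomputed, 5990 kept direction and side of the threshold, 47 lost a call, 21 gained one and 0 reversed. The cause of these moves was not tested. At this depth a gene with no counts in 3 libraries may still hold up to 3 counts.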
